A study of Mus musculus with 5 samples.

Results

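The mitochondrially encoded genes of the mouse were examined in single E6.75 embryos that lacked Oct4 in the epiblast (SO−) and in embryos that kept it (SO+). Members were all rows of the deposited count table whose gene name starts with mt-, which gave 37 of 49671 rows: 13 protein-coding genes, 2 ribosomal RNAs and 22 transfer RNAs. RNA was sequenced from the epiblast and visceral endoderm (VE) of each embryo after the extra-embryonic ectoderm (ExE) had been cut away. There were 2 SO+ and 3 SO− embryos. SO+ embryos carried no Sox2Cre and had a floxed and an intact Oct4 allele (Sox2Cre-/-; Oct4 fl/+), whereas SO− embryos carried Sox2Cre and a floxed allele over a null allele (Sox2Cre+/-; Oct4 fl/-). All came from mothers with floxed Oct4 alleles, on a mixed strain background. Sox2Cre recombines mainly in the epiblast, so the VE of an SO− embryo still holds a floxed, unrecombined allele in most cells.

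The mitochondrial genome is a small circle, inherited from the mother and present in many copies per cell. Both strands are transcribed into long precursors, and excision of the tRNAs that stand between most genes releases the mRNAs and rRNAs. The mRNAs encode core subunits of respiratory complexes I, III, IV and V, and the rRNAs build the mitochondrial ribosome, while every other protein of the organelle is encoded in the nucleus.

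Total counts were 27538119 and 27047148 in the SO+ embryos and 4134617, 1117566 and 4191498 in the SO− embryos, so every SO− library was shallower. Pou5f1, the gene for Oct4, had 25341 and 11774 counts in SO+ embryos against 115, 14 and 183 in SO− embryos, a log2 fold change of −4.43. Summed over 8 VE markers, counts scaled to library size (CPM) were 2387 and 2580 in SO+ and 3687, 3575 and 2258 in SO− embryos. The 8 epiblast markers were Pou5f1, Fgf5, Otx2, Utf1, Sox2, L1td1, Dnmt3b and Pim2. Their sums were 7347 and 6117 CPM in SO+ against 3265, 2616 and 4241 CPM in SO− embryos. Pou5f1, the deleted gene, made up 920 and 435 CPM of this in SO+ and 27.8, 12.5 and 43.7 CPM in SO−. The sum therefore cannot separate epiblast content from loss of expression within epiblast cells after the deletion. Of 8 markers of maternal decidua and blood, Prl8a2, Ptprc, Lyz2 and Hbb-bs had no count in any embryo and the summed CPM lay between 9.99 and 15.3. Summed ExE markers were 17.6 and 22.7 CPM in SO+ and 29.5, 51.0 and 29.6 CPM in SO− embryos. In such bulk samples, fewer cells of a type and less RNA per cell cannot be told apart. The SO+ libraries shared a second sequencing index that differed from the one shared by the SO− libraries, so that index and genotype cannot be told apart.

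The genes lie almost edge to edge, which sets what a read can show. In the GRCm38 mitochondrial genome, the tRNA gene mt-Tv fills the space between both rRNA genes without a spare base. Its sequence at chrM:1005-1113 (plus strand, 5′ to 3′, from the GENCODE transcripts) is shown because it joins the genes with the clearest difference between genotypes, with the last 20 bases of mt-Rnr1 and the first 20 of mt-Rnr2 in capitals.
mt-Tv: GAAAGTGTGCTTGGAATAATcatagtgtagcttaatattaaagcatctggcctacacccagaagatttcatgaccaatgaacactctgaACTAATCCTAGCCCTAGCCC

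Neighbouring mRNA genes also share bases. The stretch shared by mt-Atp8 and mt-Atp6, both subunits of ATP synthase, is 43 bases long (capitals, within chrM:7907-7989, plus strand). That of mt-Nd4l and mt-Nd4, both complex I subunits, is 7 bases long (capitals, within chrM:10147-10193, plus strand). In both, the capitals run from the start codon of the second gene to the stop codon of the first.
mt-Atp8/mt-Atp6: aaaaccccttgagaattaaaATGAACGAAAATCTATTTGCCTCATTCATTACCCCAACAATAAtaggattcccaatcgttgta
mt-Nd4l/mt-Nd4: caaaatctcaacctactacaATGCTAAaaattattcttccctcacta

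Some mitochondrial genes also have near-identical copies in the nuclear genome. Alignment of the annotated transcripts found 7 pseudogenes, in the same order as the mitochondrial genes, on the minus strand of chromosome 1 (chr1:24611535-24616197, GRCm38). Their spacing was that of the mitochondrial genes except for a shift of 1 base between the copies of mt-Nd3 and mt-Nd4l. They match the mitochondrial stretch chrM:6390-11042 from the end of mt-Co1 into mt-Nd4. Over the aligned bases, Gm28661 (copy of mt-Co2), Gm10925 (mt-Atp6), Gm28437 (mt-Co3), Gm10222 (mt-Nd4l) and Gm28439 (mt-Nd4) had 100% identity. Gm29216 differed from mt-Co1 by A1066T and Gm28438 from mt-Nd3 by T3C, counted from the first base of the mitochondrial gene, mitochondrial base first. Those sites are shown in capitals in windows at chrM:6390-6423 (mt-Co1), chr1:24616155-24616188 (Gm29216), chrM:9459-9491 (mt-Nd3) and chr1:24613087-24613119 (Gm28438), the mitochondrial ones on the plus and the nuclear ones on the minus strand.
mt-Co1: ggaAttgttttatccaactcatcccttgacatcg
Gm29216: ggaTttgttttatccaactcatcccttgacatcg
mt-Nd3: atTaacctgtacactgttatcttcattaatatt
Gm28438: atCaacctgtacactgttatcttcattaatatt

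Single bases therefore separate mt-Co1 and mt-Nd3 from their copies. Reads were paired and 150 bases long. The share of all 150-base windows of a gene found unchanged in an annotated nuclear transcript was computed. It measures how much of the gene a read, taken without its mate, cannot place among annotated transcripts. This share was 99.4% for mt-Co2 and mt-Atp6, 99.8% for mt-Co3, 97.0% for mt-Nd3 and 98.0% for mt-Nd4l. It was 59.2% for mt-Nd4, 23.6% for mt-Co1 and 0% for the other 6 mRNAs and both rRNAs. mt-Atp8 lies within the copied stretch by position, but no annotated transcript was near-identical to it, so its 0% counts annotated copies only.

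To ask whether the mitochondrial transcript pool as a whole differed without Oct4, counts of all 37 genes were expressed as a percentage of all counts of the embryo. The pool made up 2.31% and 2.60% of counts in SO+ embryos against 2.81%, 2.79% and 2.56% in SO− embryos. The groups overlapped, with means of 2.46% ± 0.202 (SD, n = 2) and 2.72% ± 0.140 (SD, n = 3), and an exact two-sided permutation test gave p = 0.3. mRNAs took 1.67% and 1.88% of counts in SO+ and 1.82%, 1.81% and 1.66% in SO− embryos. Here the highest and the second lowest embryo were both SO+, and the exact permutation p was 0.9.

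The rRNA share of counts was higher in every SO− embryo. Libraries were made with polyA selection, so these shares describe captured rRNA, and total rRNA was not measured. rRNAs made up 0.645% and 0.716% of counts in SO+ and 0.988%, 0.977% and 0.900% in SO− embryos. The groups did not overlap, and the mean was 1.40 times higher in SO− embryos (0.955% ± 0.0479, SD, n = 3) than in SO+ embryos (0.680% ± 0.0499, SD, n = 2). The exact two-sided permutation test gave p = 0.1, the smallest that 2 against 3 embryos can give, and 0.4 after Benjamini-Hochberg adjustment over the 3 classes and the total. Counting error was small beside these differences, since the widest 95% exact binomial interval of any class share reached 0.0306 percentage points to either side. Such intervals cover counting error only, as reads were amplified without molecular identifiers.

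**Figure D1:**
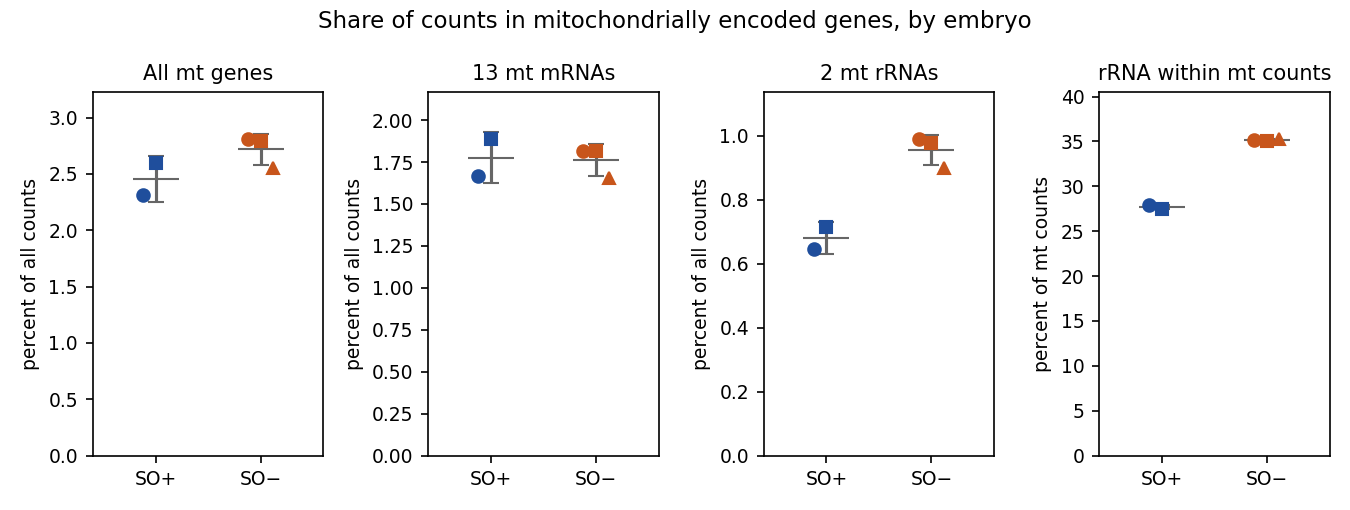
Share of counts in mitochondrially encoded (mt) genes in each embryo, as percent of all counts (first 3 panels) or of mt counts (last panel). Points are embryos (circle, embryo 1; square, embryo 2; triangle, embryo 3) and grey bars mean ± SD (n = 2 SO+, n = 3 SO−); total and mRNA shares overlap between genotypes, whereas the rRNA share is 0.645% and 0.716% in SO+ and 0.900% to 0.988% in SO− embryos.

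Within the mitochondrial pool the embryos of a genotype were close together. rRNAs made up 27.9% and 27.5% of mitochondrial counts in SO+ embryos against 35.2%, 35.0% and 35.2% in SO− embryos. This ratio was chosen after the values above had been seen, and is given without a test. It does not depend on nuclear counts. For every 100 mRNA counts there were 38.7 and 38.0 rRNA counts in SO+ and 54.3, 53.9 and 54.4 in SO− embryos. VE markers were above both SO+ embryos in SO− embryos 1 and 2 and below them in SO− embryo 3 (3687, 3575 and 2258 CPM). Epiblast markers, which include Pou5f1 itself, were lower in all SO− embryos, and all SO− libraries were shallower. The part of VE or epiblast content and of library depth in this ratio was not tested.

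Of the 37 members, 14 passed the filter on low counts and were tested with all other genes by edgeR. mt-Nd4l and the 22 tRNAs did not pass. Adjusted p was under 0.05 for 2 of the 14, mt-Rnr1 and mt-Rnr2, both higher in SO− embryos, where 2.35% of all 12067 genes tested passed in either direction (1.42% higher, 0.928% lower). CPM did not overlap between genotypes for 4 of the 14 (mt-Rnr1 and mt-Rnr2 higher, mt-Co3 and mt-Nd6 lower in SO−), against 29.5% of all genes tested (13.9% higher, 15.6% lower).

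mt-Rnr1 is the RNA of the small subunit of the mitochondrial ribosome (chrM:70-1024, plus strand). It had 6473 and 6435 counts in SO+ embryos against 1750, 438 and 1687 in SO− embryos. Scaled to depth, this was 235 and 238 CPM in SO+ and 423, 392 and 402 CPM in SO− embryos. All 3 SO− embryos were above both SO+ embryos by far more than the spread within either genotype. The log2 fold change was 0.79 (SE 0.10, 95% interval 0.57 to 1.01), with an edgeR adjusted p of 0.00125.

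mt-Rnr2 is the RNA of the large subunit (chrM:1094-2675, plus strand). It had 6217 and 6919 CPM in SO+ and 9457, 9377 and 8598 CPM in SO− embryos, again without overlap. The log2 fold change was 0.48 (SE 0.08, 95% interval 0.31 to 0.65), with an edgeR adjusted p of 0.00537. Without SO− embryo 1 or SO− embryo 2 the difference was similar (0.44 and 0.47) but the edgeR adjusted p was 0.189 and 0.0903. With the deeper SO+ libraries thinned to the mean depth of the SO− libraries, mt-Rnr1 and mt-Rnr2 remained past the threshold. Such thinning changes counting noise and leaves the expected CPM as it was. Other effects of a shallower library were therefore not tested. Neither gene had an annotated nuclear copy of at least 90% identity.

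The ratio of the rRNAs to each other also differed between genotypes, and is given without a test because it was chosen after their values had been seen. There were 26.4 and 29.1 counts of mt-Rnr2 per count of mt-Rnr1 in SO+ embryos against 22.3, 23.9 and 21.4 in SO− embryos. All SO− values were below both SO+ values. Both genes have similar base composition, 35.8% GC for mt-Rnr1 and 35.4% for mt-Rnr2, inside the range of the mRNAs (31.9% to 41.1%).

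Among the 12 mRNAs tested, adjusted p was under 0.05 for 0 by edgeR, 0 by DESeq2 and 0 by limma-voom, where 2.35%, 2.54% and 0.754% of all genes tested passed. At an unadjusted edgeR p under 0.05 there were 2, where 13.7% of all genes passed. The log2 fold changes ran from −0.40 to 0.27 with a median of −0.06, 4 higher and 8 lower on average in SO− embryos, beside a median of −0.0019 over all genes. For the 6 mRNAs with the most counts, the 95% intervals of the log2 fold change all lay between −0.28 and 0.35.

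**Figure D2:**
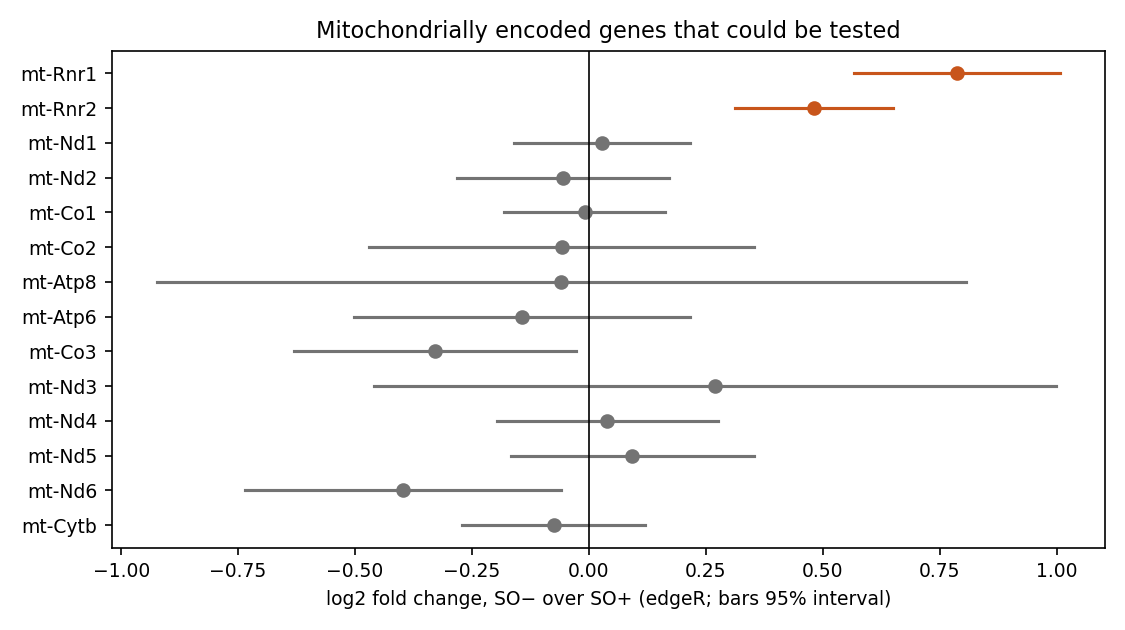
Log2 fold change (SO− over SO+, edgeR) of the 14 mitochondrially encoded genes that passed the filter on low counts, in genome order, with 95% intervals as bars (2 SO+ and 3 SO− embryos). Orange marks an adjusted p under 0.05, reached by mt-Rnr1 (0.79) and mt-Rnr2 (0.48); the mRNA values lie between −0.40 and 0.27.

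Complex I, NADH dehydrogenase, has 7 mitochondrially encoded subunits. mt-Nd1, which had the most counts of them, was at 2981 and 3397 CPM in SO+ and 3075, 3424 and 3224 CPM in SO− embryos. mt-Nd5 had 1502 and 1797 CPM in SO+ and 1835, 1962 and 1472 CPM in SO− embryos. Both overlapped between genotypes, with SO− embryo 3 lowest of all for mt-Nd5 and SO− embryo 2 highest of all for both.

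mt-Nd4 had 507 and 585 CPM in SO+ against 547, 620 and 515 CPM in SO− embryos. mt-Nd2 had 330 and 344 CPM in SO+ against 304, 319 and 346 CPM in SO− embryos. Both overlapped and differed by less than their spread. mt-Nd3 was far lower, with 8.53 and 9.58 CPM in SO+ and 8.95, 13.4 and 11.2 CPM in SO− embryos, and the 95% interval of its log2 fold change ran from −0.46 to 1.00. Its value of 0.27 was 0.41 without SO− embryo 1, 0.16 without SO− embryo 2 and 0.18 without SO+ embryo 1. mt-Nd4l had 46 and 53 counts in SO+ and 8, 1 and 11 counts in SO− embryos. With a single count in SO− embryo 2, where a count of 0 would allow up to 2.68 CPM, no difference in mt-Nd4l was detectable at this depth.

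mt-Nd6 is the only mRNA encoded on the light strand (chrM:13552-14070, minus strand). It had 83.4 and 108.6 CPM in SO+ embryos against 68.0, 82.3 and 70.6 CPM in SO− embryos. All SO− values were below both SO+ values, although SO− embryo 2 came close to SO+ embryo 1. The log2 fold change was −0.40 (SE 0.16, 95% interval −0.73 to −0.06) and the edgeR adjusted p was 0.261. The value was −0.19 without SO+ embryo 2 and −0.59 without SO+ embryo 1. SmartSeq2 libraries do not keep the strand, so reads of mt-Nd6 cannot be told apart from reads of heavy-strand precursors across the same bases.

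mt-Cytb, the mitochondrially encoded subunit of complex III, had 3125 and 3736 CPM in SO+ and 3333, 3304 and 3102 CPM in SO− embryos. The log2 fold change was −0.08 (95% interval −0.27 to 0.12), and the groups overlapped.

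Complex IV, cytochrome c oxidase, has 3 such subunits. mt-Co1, its catalytic core, was the mRNA with the most counts, with 7977 and 8683 CPM in SO+ and 8848, 8238 and 7665 CPM in SO− embryos. Its log2 fold change was −0.01 (95% interval −0.18 to 0.16). mt-Co2 had 39.8 and 38.0 CPM in SO+ and 35.1, 46.5 and 33.4 CPM in SO− embryos. SO− embryos were both the highest and the lowest for mt-Co2.

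mt-Co3 had 79.7 and 82.4 CPM in SO+ embryos against 65.1, 68.9 and 60.4 CPM in SO− embryos, and was lower in all SO− embryos. The log2 fold change was −0.33 (SE 0.14, 95% interval −0.63 to −0.03) with an edgeR adjusted p of 0.307. mt-Co3 and mt-Nd6 were the 2 tested members lower in SO− without overlap, where 15.6% of all genes tested were.

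mt-Atp6 and mt-Atp8 encode membrane subunits of complex V, ATP synthase. mt-Atp6 had 49.7 and 56.9 CPM in SO+ and 52.5, 49.2 and 42.9 CPM in SO− embryos. mt-Atp8 had 6.65 and 6.43 CPM in SO+ and 5.32, 6.26 and 7.16 CPM in SO− embryos, and its log2 fold change had a wide 95% interval, −0.92 to 0.81. The overlap with mt-Atp6 printed above takes a larger part of mt-Atp8, the shorter gene.

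Composition of the counted mRNA pool was also compared by complex, as a percentage of mitochondrial mRNA counts. Counts assigned to the nuclear copies are not part of these shares. Complex IV took 48.5% and 46.7% in SO+ and 49.2%, 46.1% and 46.9% in SO− embryos, nearly all of it mt-Co1. Complex I took 32.4% and 33.1% in SO+ and 32.1%, 35.4% and 34.1% in SO− embryos. Complex III took 18.7% and 19.8% in SO+ and 18.3%, 18.2% and 18.7% in SO− embryos. These overlapped between genotypes, with exact permutation p of 1.0, 0.5 and 0.2. Complex V took 0.338% and 0.336% in SO+ and 0.318%, 0.306% and 0.303% in SO− embryos, which did not overlap. The exact permutation p was 0.1, the smallest possible, and 0.4 after adjustment over the 4 complexes. Gm10925, the nuclear copy of mt-Atp6, took 35.8% to 43.7% of the counts of that pair. Its log2 fold change was −0.46, beside −0.14 for mt-Atp6. The part of the nuclear copies, and of reads that match several places, in the shares by complex was not tested.

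Levels were compared between genes per kilobase (kb) of gene. mt-Co1 averaged 5361 CPM per kb over the 5 embryos and mt-Rnr2 averaged 5129 CPM per kb. Their order turned with genotype: mt-Co1 was above mt-Rnr2 in both SO+ embryos and below it in all 3 SO− embryos. mt-Nd1 (3365 CPM per kb) and mt-Cytb (2902 CPM per kb) followed, in that order in each of 5 embryos, although their ranges overlapped. mt-Nd5 (939.6 CPM per kb) was below them and mt-Nd4 (403 CPM per kb) below it, without overlap.

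mt-Rnr1 (354 CPM per kb) and mt-Nd2 (317 CPM per kb) came next, and the place of mt-Rnr1 also turned with genotype. It was below mt-Nd2 in both SO+ embryos (246 and 249 against 318 and 332 CPM per kb) and above it in all 3 SO− embryos (443, 410 and 421 against 293, 307 and 334 CPM per kb). mt-Nd4 was above mt-Rnr1 in both SO+ embryos and in SO− embryo 2, and below it in SO− embryos 1 and 3. mt-Rnr1 had far fewer counts per kb than mt-Rnr2 in every embryo, 246 to 443 against 3930 to 5978 CPM per kb. Below them came mt-Nd6 (159 CPM per kb), then mt-Co3 (90.9), mt-Atp6 (73.8) and mt-Co2 (56.4 CPM per kb), in that order in 5 of 5 embryos. mt-Atp8 (31.2 CPM per kb) and mt-Nd3 (29.7 CPM per kb) could not be ordered, and mt-Nd4l (6.12 CPM per kb) was lowest.

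The low levels fell together along the genome. The 5 mRNAs with over 90% of windows shared with a nuclear copy spanned 3.01 to 105.2 CPM per kb over all embryos, and the 7 others apart from mt-Atp8 spanned 130.9 to 5727 CPM per kb. These sets did not overlap. mt-Atp8, inside the copied stretch by position, was at 26.1 to 35.1 CPM per kb. How reads that match 2 places were handled in counting was not given in the sources used here, so these levels cannot be read as the abundance of the mitochondrial mRNAs.

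**Figure D3:**
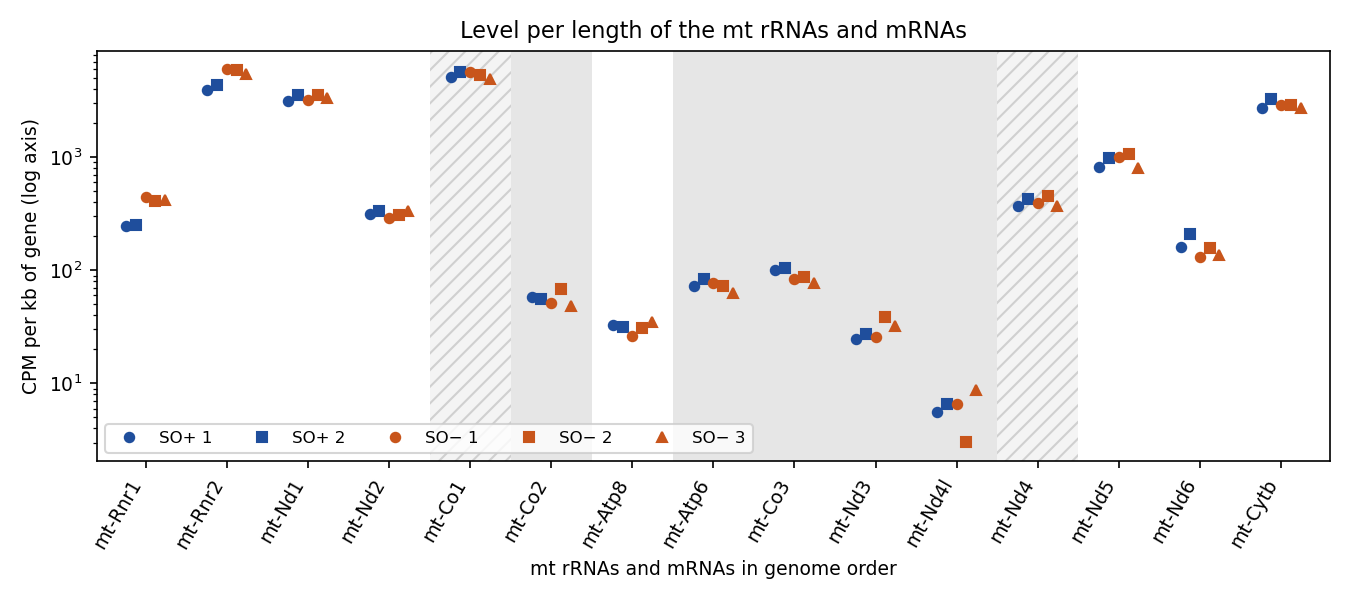
CPM per kb of gene (log axis) for the 2 mt rRNAs and 13 mt mRNAs in genome order, 1 point per embryo. Solid grey marks genes with over 90% of 150-base windows shared with a nuclear copy and hatching those with a smaller shared part; the 5 genes in solid grey lie at 3.01 to 105.2 CPM per kb, and the mt-Rnr1 and mt-Rnr2 points of SO− embryos lie above those of SO+ embryos.

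The nuclear copies themselves carried counts. Gm28437, the copy of mt-Co3, took 58.4% to 63.3% of the counts of the pair, more than mt-Co3 itself in every embryo. Gm10222 took 83.8% to 94.4% of the counts it shared with mt-Nd4l. The copies of mt-Co2 and mt-Atp6 took 40.3% to 47.9% and 35.8% to 43.7%, and that of mt-Nd3 took 11.8% to 21.3%. Where the near-identical copy covers only part of the gene the share was low, 2.88% to 4.42% for mt-Nd4 and 0.411% to 0.555% for mt-Co1. A longer copy of mt-Co1 on chromosome 2, Gm13340, spans 100% of the gene at 97.6% identity. It had 134 and 140 CPM in SO+ and 131, 129 and 122 CPM in SO− embryos.

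Summed over the 7 copies on chromosome 1, there were 275 and 303 CPM in SO+ and 236, 243 and 228 CPM in SO− embryos, without overlap. Over all annotated copies of at least 90% identity, the sums were 440 and 476 CPM in SO+ and 400, 403 and 379 CPM in SO− embryos. Of 11 annotated copies of at least 90% identity that passed the filter, 0 passed the edgeR threshold after adjustment (2.35% of all genes tested) and 2 were under 0.05 before it (13.7% of all genes). Gm28437 had a log2 fold change of −0.33 (adjusted p 0.231), the same as mt-Co3. Gm10925 had −0.46 (adjusted p 0.328) beside −0.14 for mt-Atp6, which ranged from −0.04 (without SO+ embryo 2) to −0.25 (without SO+ embryo 1). Gm28437 and mt-Co3 together had 202 and 219 CPM in SO+ and 171, 166 and 164 CPM in SO− embryos.

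**Figure D4:**
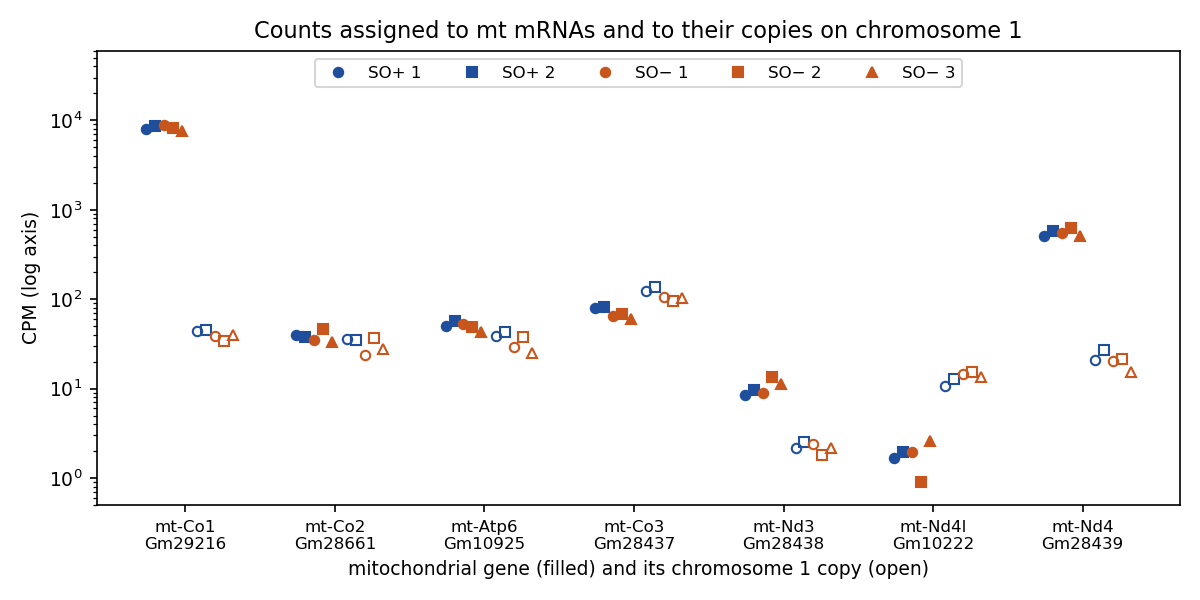
CPM (log axis) of 7 mitochondrial mRNAs (filled) and their near-identical pseudogenes on chromosome 1 (open), 1 point per embryo. For mt-Co3 and mt-Nd4l the open points lie above the filled ones in every embryo, with the copy taking 58.4% to 63.3% and 83.8% to 94.4% of the pair's counts.

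All 22 tRNAs had 0 counts in all 5 embryos. A count of 0 allows up to 0.109 CPM in the deepest library and up to 2.68 CPM in the shallowest. The genes are 59 to 75 bases long, and 14 of them touch or overlap a neighbouring gene, as mt-Tv does. The absence of counts was not particular to mitochondrial tRNAs: of 1001 genes outside the mitochondrial genome with a length of 75 bases or less, 0 had a count in any embryo, and 34 of 4781 genes of 76 to 150 bases had one. mt tRNA levels were therefore not measured in these libraries.

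For context, 141 nuclear genes for respiratory chain subunits and for the copying, transcription, RNA processing and translation of the mitochondrial genome were read from the same fit. Of the 139 tested, adjusted p was under 0.05 for 0 by edgeR, 0 by DESeq2 and 0 by limma-voom, where 2.35%, 2.54% and 0.754% of all genes tested passed. Before adjustment 7 had an edgeR p under 0.05, where 13.7% of all genes did. Their median log2 fold change was −0.04, with 50 higher and 89 lower on average in SO− embryos, where 49.7% of all genes were higher. The 75 respiratory chain subunits and the 64 expression and maintenance factors had medians of −0.04 and −0.03.

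Among factors that act on mitochondrial RNA, Lrpprc, which stabilises the mRNAs, had 214 and 192 CPM in SO+ and 160, 149 and 187 CPM in SO− embryos (log2 fold change −0.28, edgeR adjusted p 0.340). Gfm1, a mitochondrial translation elongation factor, had 82.6 and 79.2 CPM in SO+ and 61.2, 66.2 and 64.4 CPM in SO− embryos (−0.34, edgeR adjusted p 0.277). Twnk, the helicase that replicates mitochondrial DNA, had a log2 fold change of −0.35 (edgeR adjusted p 0.300). These genes had the smallest p of their lists. Each was lower in SO− without overlap, and none passed the threshold. Over all genes tested 15.6% were lower without overlap, but these genes were picked by p, so that share is not a like comparison.

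Other members with the smallest p of their list included Mterf3 (log2 fold change −0.18, edgeR adjusted p 0.818) and Ppargc1b (−0.87, edgeR adjusted p 0.656). Ppargc1b had few counts, and its value was −0.45 without SO− embryo 3 and −1.33 without SO− embryo 1. Tfam, which packages mitochondrial DNA and starts its transcription, had a log2 fold change of −0.22 (edgeR adjusted p 0.533), which was −0.11 without SO+ embryo 2. For Polrmt, the mitochondrial RNA polymerase, it was −0.01 (edgeR adjusted p 0.997). Tfam and Polrmt are named for their roles and not for their p.

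Among nuclear respiratory chain subunits, Ndufs5 of complex I had the smallest p, with 27.8 and 5.95 CPM in SO+ and 5.32, 4.47 and 8.35 CPM in SO− embryos. SO+ embryo 1 stood apart, and without it the log2 fold change turned from −1.40 (edgeR adjusted p 0.257) to 0.09. For the other complexes the smallest p belonged to Sdhd (log2 fold change −0.14), Uqcr11 (−0.26), Cox7c (−0.26) and Atp5b (−0.14), with edgeR adjusted p of 0.712, 0.357, 0.405 and 0.473. Without SO− embryo 1 the value of Sdhd was −0.24.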

How the data were processed

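The authors removed adapters from paired 150-base SmartSeq2 reads (polyA selection), aligned them to GRCm38 with STAR and counted them per gene with HTSeq on an Ensembl annotation. The deposited values are raw counts per gene. Treatment of multi-mapped reads and of strand was not given in the sources used here. The labels name 2 wild-type (SO+) and 3 mutant (SO−) replicates and do not say that each is a separate embryo. The paper describes dissection and genotyping per embryo, so each replicate was taken as a separate embryo. Permutation p-values rest on the spread between these embryos alone. The edgeR p-values also draw on the spread of other genes.

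CPM values are counts scaled to the total of all counts of an embryo. Genes passing filterByExpr were tested with edgeR 4.0.16 (R 4.3.3) by its quasi-likelihood test after TMM scaling, in a model of genotype alone, and p-values were adjusted by Benjamini-Hochberg over all 12067 genes, with a threshold of 0.05. The script was tested on simulated data. limma 3.58.1 (voom) and DESeq2 1.42.0 were alternatives, with other scalings, filters, thinning, a replicate block and each embryo left out. Shares were compared by exact two-sided permutation of the 5 embryos. Nuclear copies were annotated GENCODE transcripts aligned by blastn 2.17.0 (at least 90% identity over at least 100 bases), so copies outside the annotation were not analysed here. The count table matched 99.3% of its genes to that annotation.

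Members and gene lists were chosen with earlier results of these data known. Genes named were all members, the near-identical copies and Gm13340, the copy with the most counts. From each nuclear list the member with the smallest p was named, and Tfam and Polrmt were added. Embryos of a number were different animals in the 2 genotypes, and the labels give no pairing. Correlations of their deviations from the genotype means were 0.0077 and 0.115. With 2 SO+ embryos, whose deviations mirror each other, these correlations cannot show whether same-numbered embryos shared handling. The numbers were not used as pairs in the main fit. Libraries of a genotype differed beyond sampling noise (chi-square per degree of freedom at least 2.78). This value cannot tell separate embryos from repeated libraries of the same RNA, as amplification also adds noise. None was counted as a repeat.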

Additional observations from a re-analysis of the deposited data

How the results depend on the processing

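mt-Rnr1 stayed past the threshold under all 18 alternatives fitted (log2 fold change 0.74 to 0.84, adjusted p up to 0.0468) and mt-Rnr2 under 16 of 18 (0.40 to 0.56), the exceptions being without SO− embryo 1 or 2, so that 1 to 2 members were called when each embryo was left out. Over all genes, 283 were called, 91 by limma-voom, and 35 (without SO− embryo 2) to 573 (without SO+ embryo 2) with each embryo left out. By limma-voom the log2 fold change of Pou5f1 was −4.35 with an adjusted p of 0.0639. The median log2 fold change of all genes was −0.0019 in the main fit and furthest from it without a filter (−0.036). Among scalings the furthest was upper-quartile scaling (−0.018). The library depths, lowest in SO− embryo 2, limit mt-Nd4l, mt-Atp8 and mt-Nd3. The difference in the mRNA share (SO− minus SO+, −0.015 percentage points) turned to 0.0081 with nuclear protein-coding counts as denominator and ranged from −0.12 to 0.093 with each embryo left out, and that of complex IV (−0.22 points) from −1.14 to 0.67. Log2 fold changes near 0 changed sign, and the cause was not tested: mt-Nd1 was −0.0090 without a filter and −0.0058 with the GC trend removed, and with the trend in exon length removed mt-Co1 was 0.020, mt-Co2 0.0077 and mt-Atp8 0.038. mt-Atp8 was 0.056 after thinning, Polrmt 0.043 with the GC trend removed and Gm28438 0.020 by limma-voom. With each embryo left out, the ranges were −0.073 to 0.13 for mt-Nd1, −0.13 to −0.023 for mt-Nd2, −0.078 to 0.054 for mt-Co1, −0.18 to 0.019 for mt-Co2, −0.21 to 0.059 for mt-Atp8, −0.069 to 0.15 for mt-Nd4, −0.040 to 0.23 for mt-Nd5, −0.21 to 0.060 for mt-Cytb, −0.25 to −0.043 for mt-Atp6, −0.59 to −0.19 for mt-Nd6, 0.16 to 0.41 for mt-Nd3, −0.32 to −0.11 for Tfam, −1.33 to −0.45 for Ppargc1b, −0.12 to 0.071 for Polrmt, −0.22 to 0.035 for Gm28438 and −2.11 to 0.085 for Ndufs5. The log2 ratio of the tRNA share could not be computed, as both genotypes were at 0. The removal of trends with GC content and exon length and the scaling to mitochondrial mRNA counts were chosen after seeing the data.

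With the replicate number as a block, although the labels give no pairing, 929 genes were called in all, and mt-Rnr1 and mt-Rnr2 were the 2 members called. In this block fit mt-Co1 was 0.038, mt-Co2 0.029 and Polrmt 0.064, and 1 gene each was called among the nuclear subunits of complex I (Ndufs5, −1.85, adjusted p 0.00326; 0 to 1 with each embryo left out), those of complex III, and the RNA processing factors (Lrpprc, −0.40, adjusted p 0.0470).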
